A study of Mus musculus with 16 samples.

Results

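Neurexins, neuroligins and LRRTM proteins are adhesion molecules that meet across the synaptic cleft. The 9 genes described here are Nrxn2, Nrxn3, Nlgn1, Nlgn2, Nlgn3, Lrrtm1, Lrrtm2, Lrrtm3 and Lrrtm4. They were taken by symbol from a count table of 46320 genes, and all 9 were among the 19964 genes that passed a filter on low counts. RNA was sequenced from the somatodendritic and the axonal compartment of motoneurons from Hnrnpr-/- and +/+ mice, with 4 libraries in each of the 4 groups. Hnrnpr encodes hnRNP R, an RNA-binding protein of the nucleus and of axons, and the knockout line carries a CRISPR/Cas9 deletion of its first exons in mice backcrossed to C57Bl/6. All 4 groups came from lumbar spinal cords of embryonic day 13 embryos, enriched with an antibody to the neurotrophin receptor p75 and grown in microfluidic chambers, in which axons cross narrow channels into a compartment of their own. CNTF was given at 5 ng/ml on both sides in every group, and BDNF at 20 ng/ml on the axonal side only. The study describes the libraries of a group as biological replicates. The labels do not name the cultures, and p-values measure the spread between these libraries.

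Neurexins sit mainly on presynaptic membranes, where they gather the release machinery and calcium channels. Neuroligins and LRRTMs are postsynaptic ligands of neurexins, with neuroligin 2 known from inhibitory synapses, neuroligin 1 from excitatory synapses and LRRTMs from excitatory synapses. Each neurexin gene is read from separate promoters into a long alpha form and a short beta form, and alternative exons decide which ligands it can bind. The comparisons ask how much of the RNA for each side of this contact is found in the axonal compartment, and whether loss of hnRNP R changes that amount.

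The values are gene totals, so forms that start at different promoters are summed in 1 row. Promoter sequence from RefSeq (build GRCm38.p6) was matched to 6 of the 9 genes. For Nrxn3 it held 3 starts. The 50 bases after the first were found in 6 GENCODE transcripts, of which 2 code for proteins of 1391 and 1571 residues, and those after the last in 3 transcripts that code for proteins of 430 to 635 residues. The long and the short form of Nrxn3 therefore could not be told apart in these counts. The stretch before the last Nrxn3 start is shown with that of Nlgn2 and of the first Lrrtm4 start, because these are a gene for each side of the contact with a large axonal difference and the gene with the smallest. They lie at chr12:89812233-89812407 (plus strand), chr11:69837788-69838034 (minus strand) and chr6:80018627-80018876 (plus strand), and stop before the most upstream matched transcript. Capitals mark CG dinucleotides.
Nrxn3, last start: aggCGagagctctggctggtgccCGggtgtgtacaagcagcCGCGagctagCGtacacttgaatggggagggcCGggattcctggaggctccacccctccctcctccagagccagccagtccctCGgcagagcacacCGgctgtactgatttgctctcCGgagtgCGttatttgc
Nlgn2: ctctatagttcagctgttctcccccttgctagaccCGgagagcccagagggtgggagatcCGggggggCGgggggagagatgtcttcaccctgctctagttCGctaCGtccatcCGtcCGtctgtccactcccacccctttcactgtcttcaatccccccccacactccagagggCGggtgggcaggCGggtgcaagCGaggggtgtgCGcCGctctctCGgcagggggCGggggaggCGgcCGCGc
Lrrtm4, first start: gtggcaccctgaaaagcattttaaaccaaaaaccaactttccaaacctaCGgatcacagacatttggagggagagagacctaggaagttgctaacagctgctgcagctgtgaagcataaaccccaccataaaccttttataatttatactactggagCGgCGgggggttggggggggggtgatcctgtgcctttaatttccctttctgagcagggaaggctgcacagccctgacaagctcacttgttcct
The Nlgn2 stretch of 247 bases held 17 CG dinucleotides, a number that 23% of all 32851 promoters reached over the same positions. The Nrxn3 stretch of 175 bases held 10, which 24.4% of promoters reached, and the Lrrtm4 stretch of 250 bases held 3, which 71% reached. The Lrrtm4 stretch also held the letters TTTATA, the reverse complement of TATAAA, and 12.4% of all promoters held either in the 250 bases before the start. These matches describe letters only.

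Total counts per library ranged from 22024636 to 34863923. Levels are given as CPM (counts scaled to a common library total) after correction by TMM factors, and differences as log2 changes from edgeR's quasi-likelihood test with Benjamini-Hochberg adjustment over all 19964 genes. Hnrnpr itself lay at 119.9 to 421.8 CPM in the 8 +/+ libraries and at 0.544 to 1.16 CPM in the 8 Hnrnpr-/- libraries, so the genotype labels held. Among 7 motoneuron markers, Mnx1 was at 0 in every +/+ library and the whole list summed to only 13.04 to 29.9 CPM in the +/+ somatodendritic libraries and 3.90 to 16.4 CPM in the +/+ axonal ones. Of markers of other cells tested in +/+, edgeR called 4 of 7 astrocyte or radial glia genes, 2 of 7 fibroblast, meningeal or mural genes, 2 of 7 oligodendroglia or Schwann cell genes and 1 of 6 microglia genes higher in axons, and 0 lower, beside 30.1% of all genes called higher. In Hnrnpr-/- the numbers were 2, 2, 2 and 1, beside 27.5%. The 7 fibroblast, meningeal or mural genes summed to 72.2 to 712 CPM in the +/+ somatodendritic and 1063 to 10250 CPM in the +/+ axonal libraries, and the 7 astrocyte or radial glia genes to 1381 to 2149 and 2582 to 5621 CPM. The 8 oligodendroglia or Schwann cell genes summed to 225 to 889.7 and 369 to 1359 CPM, and the 6 microglia genes to 7.79 to 29.7 and 11.9 to 73.0 CPM. In the Hnrnpr-/- libraries the fibroblast list summed to 119 to 1319 CPM in the somatodendritic and 1949 to 9382 CPM in the axonal compartment, the astrocyte list to 1604 to 2677 and 2405 to 4603 CPM, the oligodendroglia list to 319 to 1075 and 331 to 1866 CPM, and the microglia list to 6.66 to 83.1 and 19.5 to 196.9 CPM. Most of the axonal sums of the fibroblast, meningeal or mural list came from Acta2 (smooth muscle actin). Acta2 ranged from 11.8 to 353 CPM in +/+ somatodendritic and from 935 to 9777 CPM in +/+ axonal libraries. The other 6 genes of that list summed to 60.4 to 406 and 128 to 2005 CPM. Axonal replicates 3 of both genotypes stood apart by Acta2, at 9777 CPM in +/+ and 8728 CPM in Hnrnpr-/-, whereas the other 6 genes were highest in replicates 4 among the axonal libraries of each genotype, at 2005 and 1735 CPM. Acta2 was set apart from its list after the data were seen. A further list held 4 dendritic or nuclear RNAs, Map2, Camk2a, Meg3 and the nuclear RNA Malat1. In +/+ axons edgeR called 3 of them lower and 1, Malat1, higher, with a log2 change of 2.26. Malat1 averaged 226 CPM in +/+ cell bodies and dendrites and 1084 CPM in +/+ axons. In Hnrnpr-/- axons 3 were called lower and 0 higher, and Malat1 averaged 493 against 295 CPM. How much nuclear RNA the axonal libraries held was not tested.

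The mean CPM of each of the 9 adhesion genes was lower in axons than in cell bodies and dendrites, and the log2 changes of the neurexins and Lrrtm4 were the largest. In +/+ motoneurons 8 of the 9 were called lower in axons at an adjusted p under 0.05, the exception being Nlgn2, beside 27.4% of all genes tested called lower and 57.5% called in either direction. In Hnrnpr-/- motoneurons all 9 were called lower, beside 26.8% of all genes called lower and 54.2% called in either direction. The median log2 change of the 9 genes was -1.77 in +/+ and -2.00 in Hnrnpr-/-, while the median over all genes tested was 0.07 and -0.0028. The libraries of the compartments did not overlap for 7 of 9 genes in +/+, beside 27.6% of all genes wholly lower in axons, and for 9 of 9 in Hnrnpr-/-, beside 27.3%. The 2 comparisons share no libraries.

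**Figure D1:**
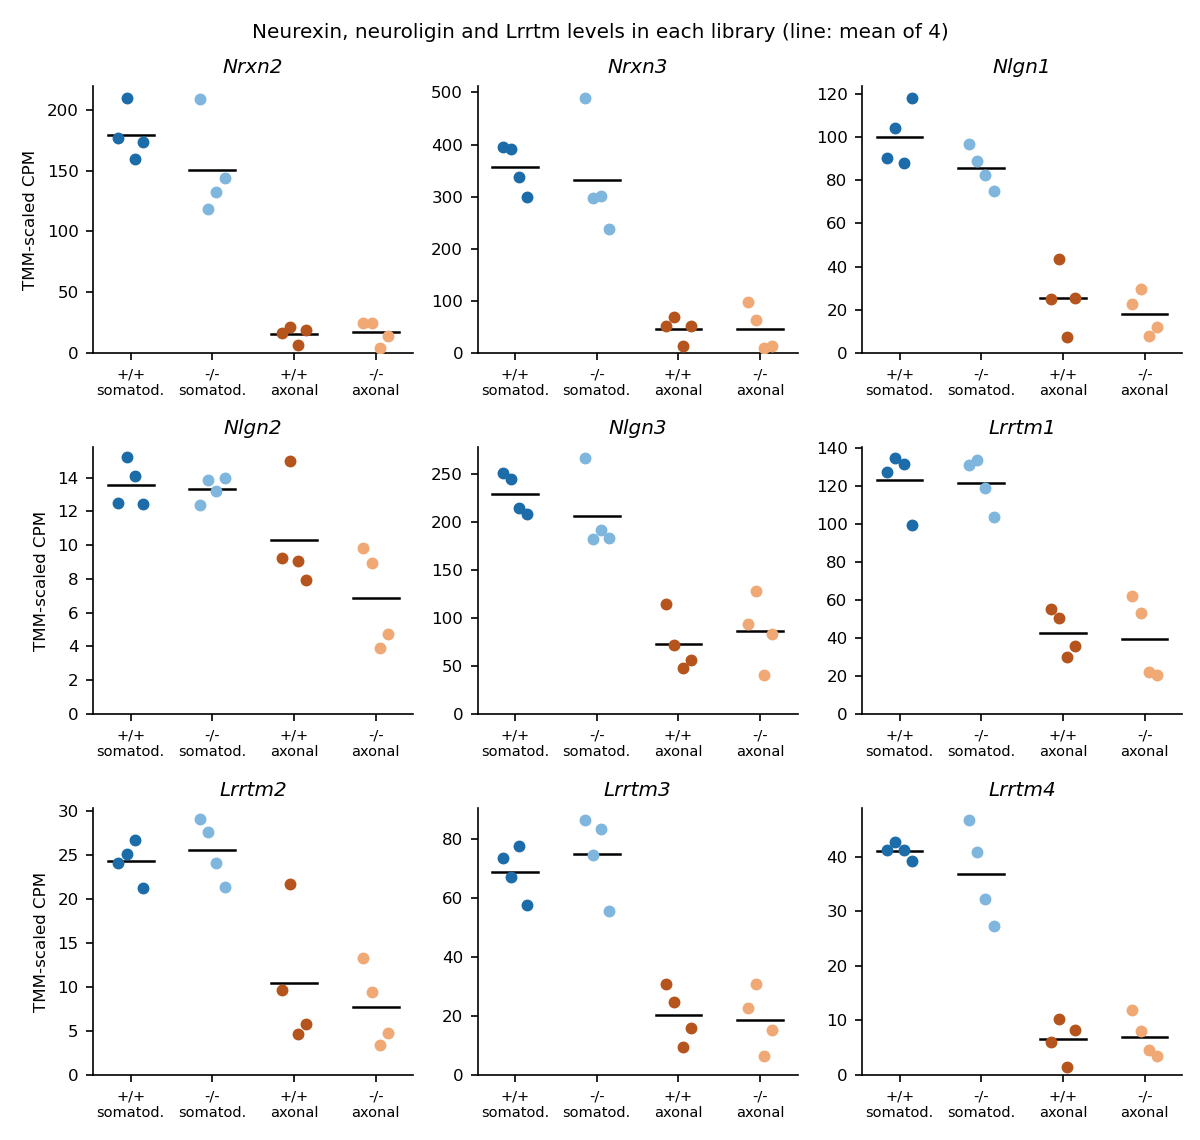
TMM-scaled CPM of each of the 9 genes in each library, in 1 panel per gene with its own axis from 0. Points are the 4 libraries of a group, the line is their mean, and the groups are +/+ and Hnrnpr-/- in the somatodendritic and axonal compartments. In +/+ the compartments do not overlap for 7 of the 9 genes, and in Hnrnpr-/- for 9 of 9.

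Nrxn2 (chr19:6468786-6583247 in GRCm39, plus strand) encodes neurexin 2. In the +/+ somatodendritic libraries 1 to 4 it stood at 176, 209, 159.8 and 173 CPM, and in the +/+ axonal libraries at 16.2, 21.1, 6.95 and 18.9 CPM. In Hnrnpr-/- it stood at 209, 118, 132 and 144 CPM in the somatodendritic and 25.1, 24.8, 4.38 and 13.7 CPM in the axonal compartment. No axonal library reached the lowest somatodendritic one in either genotype. The log2 change from the somatodendritic to the axonal compartment was -3.51 ± 0.46 (SE, n = 4 against 4, edgeR adjusted p = 5.57e-05) in +/+, that is 11.4-fold lower, and -3.15 ± 0.46 (adjusted p = 0.000122) in Hnrnpr-/-. This was the largest compartment difference of the 9 genes in both genotypes. Nrxn3 (chr12:88689454-90301709, plus strand), the neurexin gene with the longest span of these genes at 1612 kb, had the highest mean CPM of the 9 in the somatodendritic compartment of both genotypes, whereas Nlgn3 had it in axons. Its +/+ libraries stood at 394.5, 391, 338 and 299.8 CPM in the somatodendritic and 52.8, 68.6, 13.9 and 52.7 CPM in the axonal compartment. Its Hnrnpr-/- libraries stood at 488, 298, 301.5 and 238 CPM and at 97.1, 63.5, 8.94 and 13.02 CPM. The compartments were again apart, but axonal replicates 3 were several times below replicates 1 and 2 in both genotypes, as was Hnrnpr-/- axonal replicate 4. The log2 change was -2.92 ± 0.65 (adjusted p = 0.00163) in +/+, or 7.57-fold lower, and -2.86 ± 0.64 (adjusted p = 0.00206) in Hnrnpr-/-. Without Hnrnpr-/- axonal replicate 1, which held the highest axonal value, the Hnrnpr-/- change was -3.54 ± 0.67.

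Nlgn3 (chrX:100342785-100364956, plus strand), found at both excitatory and inhibitory synapses, was the most abundant neuroligin by mean CPM in every group. Its +/+ libraries stood at 251, 245, 214 and 208.5 CPM in the somatodendritic and 115, 72.4, 47.9 and 56.8 CPM in the axonal compartment. Its Hnrnpr-/- libraries stood at 267, 183, 191 and 184 CPM and at 93.5, 128, 40.4 and 83.7 CPM. No axonal library overlapped the somatodendritic range, and the log2 change was -1.66 ± 0.31 (adjusted p = 0.000561) in +/+ and -1.26 ± 0.31 (adjusted p = 0.0036) in Hnrnpr-/-. Nlgn1 (chr3:25475972-26387504, minus strand) stood at 90.2, 104, 88.1 and 118 CPM in the +/+ somatodendritic libraries and at 24.8, 43.6, 7.47 and 25.7 CPM in the axonal ones. In Hnrnpr-/- its values were 96.8, 89.0, 82.5 and 75.1 CPM against 22.7, 29.4, 7.74 and 12.2 CPM. Both genotypes showed a gap between the compartments, with log2 changes of -1.98 ± 0.44 (adjusted p = 0.00166) and -2.25 ± 0.44 (adjusted p = 0.000862).

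Nlgn2 (chr11:69713949-69728610, minus strand), the neuroligin of inhibitory synapses, was the 1 gene not called in +/+. It was a low gene in cell bodies, at 12.5, 15.2, 14.1 and 12.4 CPM in the +/+ somatodendritic libraries, and stood at 9.22, 14.97, 9.06 and 7.95 CPM in the +/+ axonal libraries. Axonal replicate 2 lay within the somatodendritic range and the other 3 below it. The log2 change of -0.40 ± 0.28 was not called (adjusted p = 0.236), and its 95% interval from -0.99 to 0.20 spans axonal levels from well below the somatodendritic ones to slightly above them. Without axonal replicate 2 the change was -0.64 ± 0.28 (adjusted p = 0.0605), and without axonal replicate 4 it was -0.25 ± 0.30 (adjusted p = 0.497). In Hnrnpr-/- the libraries stood at 12.4, 13.8, 13.2 and 14.0 CPM in the somatodendritic and 9.84, 8.97, 3.90 and 4.74 CPM in the axonal compartment. Here the compartments did not overlap and Nlgn2 was called lower, with a log2 change of -0.96 ± 0.28 (adjusted p = 0.01). The difference between the 2 changes was -0.56 ± 0.39 with an edgeR adjusted p of 1 and an unadjusted p of 0.174 in the model over all genes, so Nlgn2 was not shown to differ between the genotypes.

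Of the Lrrtm genes, which encode small leucine-rich repeat proteins of the postsynaptic membrane, 3 lie inside an alpha-catenin gene on the opposite strand. Lrrtm1 (chr6:77192762-77236898, plus strand) lies inside Ctnna2, Lrrtm2 (chr18:35342056-35348077, minus strand) inside Ctnna1 and Lrrtm3 (chr10:63764276-63926034, minus strand) inside Ctnna3. The cDNA kit used does not keep strand, although reads were counted as reverse-stranded, so reads from a host gene and its inner gene cannot be told apart where exons or unspliced RNA overlap. In GENCODE no exon of Lrrtm1 or Lrrtm3 overlapped an exon of its host, whereas 3 of 5 annotated Lrrtm2 exon intervals overlapped a Ctnna1 exon. The host genes did not all move with their inner genes. Ctnna2 had a mean of 411 CPM over the 8 somatodendritic and 116 CPM over the 8 axonal libraries, Ctnna1 of 49.7 and 271 CPM, and Ctnna3 of 4.86 and 5.05 CPM.

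Lrrtm1 was the most abundant of the family by CPM. Its +/+ libraries stood at 127, 135, 132 and 99.2 CPM in the somatodendritic and 55.0, 50.8, 29.9 and 35.8 CPM in the axonal compartment, and its Hnrnpr-/- libraries at 131, 134, 119 and 103 CPM and at 62.2, 53.3, 22.3 and 20.3 CPM. The compartments were apart in both genotypes, with log2 changes of -1.52 ± 0.32 (adjusted p = 0.00119) and -1.62 ± 0.32 (adjusted p = 0.000905). Lrrtm3 stood at 73.7, 67.1, 77.5 and 57.8 CPM against 30.9, 24.8, 9.42 and 16.1 CPM in +/+, and at 86.5, 74.7, 83.5 and 55.6 CPM against 22.6, 30.9, 6.57 and 15.2 CPM in Hnrnpr-/-. No axonal value came near the somatodendritic range, and the log2 changes were -1.77 ± 0.40 (adjusted p = 0.00195) and -2.00 ± 0.40 (adjusted p = 0.00104). Lrrtm4 (chr6:79995828-80787143, plus strand), a gene of 791 kb in no catenin gene, stood at 41.2, 42.6, 41.2 and 39.2 CPM against 6.02, 10.3, 1.56 and 8.22 CPM in +/+. In Hnrnpr-/- it stood at 46.7, 40.9, 32.1 and 27.4 CPM against 11.9, 8.13, 4.59 and 3.48 CPM. Its log2 changes of -2.65 ± 0.47 (adjusted p = 0.00035) and -2.39 ± 0.46 (adjusted p = 0.000771) were the largest of the 4 Lrrtm genes in both genotypes.

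Lrrtm2 was the weakest of the calls in +/+. It stood at 24.1, 25.1, 26.7 and 21.2 CPM in the +/+ somatodendritic libraries and at 9.67, 21.6, 4.67 and 5.75 CPM in the axonal ones. Axonal replicate 2 lay inside the somatodendritic range. The log2 change was -1.22 ± 0.45 (edgeR adjusted p = 0.0304) with all libraries and -1.86 ± 0.40 without that library. The call was lost when any 1 of 6 other +/+ libraries was left out, with adjusted p of 0.0584, 0.0643 and 0.0673 without somatodendritic replicates 1, 2 and 3, and of 0.0612, 0.0963 and 0.0921 without axonal replicates 1, 3 and 4. In Hnrnpr-/- Lrrtm2 stood at 29.0, 27.6, 24.1 and 21.4 CPM against 13.3, 9.40, 3.42 and 4.80 CPM. There the compartments were apart and the log2 change was -1.72 ± 0.46 (adjusted p = 0.00549).

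**Figure D2:**
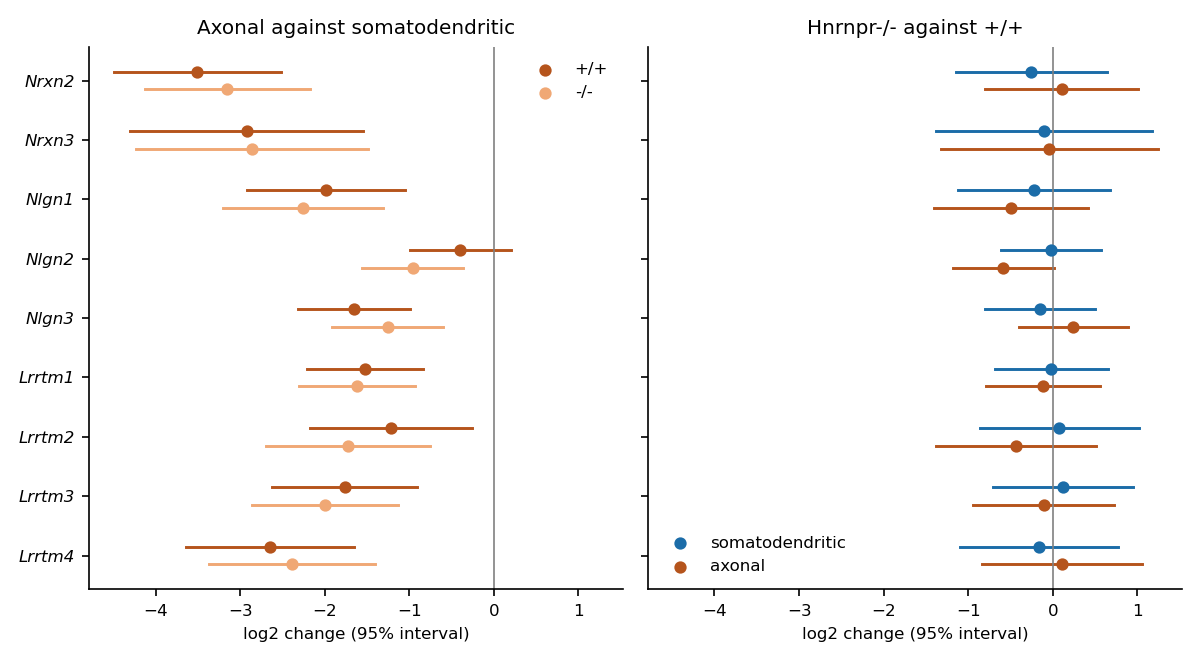
Log2 changes of the 9 genes with 95% intervals from the model over all 16 libraries. Left, axonal against somatodendritic in +/+ and Hnrnpr-/-, where 17 of 18 intervals lie below 0 and only that of Nlgn2 in +/+ reaches above it. Right, Hnrnpr-/- against +/+ in each compartment, where all 18 intervals include 0.

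The axonal libraries differed in how much neuronal RNA they held. In bulk samples fewer cells of a type and less RNA per cell cannot be told apart. Axonal replicates 3 had the lowest values for 8 of the 9 genes in +/+ and for 7 of 9 in Hnrnpr-/-. The share of all genes lowest in these libraries was not counted. The same libraries had the least of 8 neuronal cytoskeleton and growth cone genes (Tubb3, Stmn2, Gap43, Map1b, Nefl, Nefm, Uchl1 and Snap25, a list chosen after the data were seen) in their groups, at 1343 and 951.7 CPM. That list summed to 8919 to 10550 CPM in the +/+ somatodendritic and 1343 to 3769 CPM in the +/+ axonal libraries, and to 6904 to 10270 and 951.7 to 5735 CPM in Hnrnpr-/-. Of its 8 genes 7 were called lower in +/+ axons, with a median log2 change of -1.98. Hnrnpr-/- axonal replicate 4 lay close to replicate 3 by this list, at 1059 CPM. Leaving out both axonal replicates 3, an alternative chosen after the data were seen, gave 7 of 9 adhesion genes called lower in +/+, beside 26.4% of the 20129 genes tested in that fit, and 9 of 9 in Hnrnpr-/-, beside 25.1%, with Lrrtm2 no longer called in +/+ (log2 change -0.97 ± 0.40, adjusted p = 0.0533). The part of other cells in the compartment differences was not tested.

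**Figure D3:**
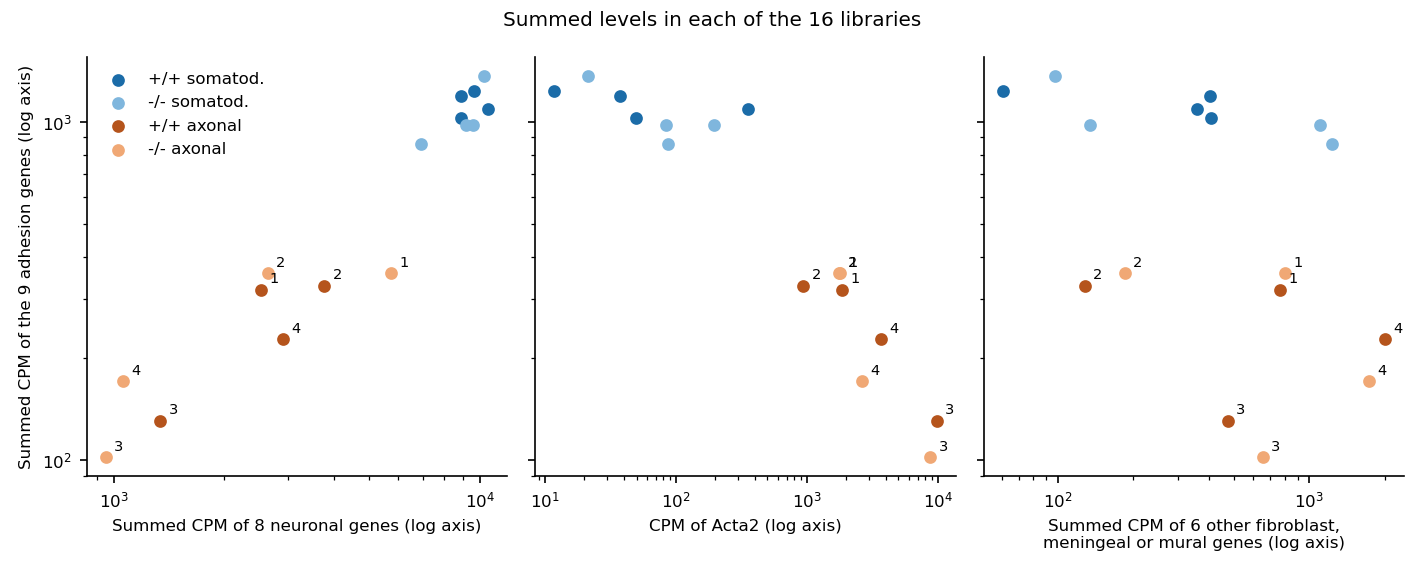
Summed CPM of the 9 adhesion genes in each of the 16 libraries (both axes log) against the summed CPM of the 8 neuronal genes, left, the CPM of Acta2, middle, and the summed CPM of the other 6 fibroblast, meningeal or mural genes, right. Numbers beside axonal points are replicate numbers. Axonal replicates 3 have the lowest summed adhesion RNA of their groups (131 CPM in +/+ and 102 CPM in Hnrnpr-/-), the lowest sum of the 8 neuronal genes and the most Acta2, while the other 6 genes are highest in replicates 4 among the axonal libraries of each genotype.

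Divided by the summed CPM of the 8 neuronal genes, the 9 genes differed in direction. On that scale, given as CPM per 1000 CPM of neuronal genes and with no test, Nrxn2 was at 15.1 to 21.7 in the +/+ somatodendritic and 5.17 to 6.50 in the +/+ axonal libraries. Nrxn3 was at 32.1 to 44.2 and 10.4 to 20.8, and Lrrtm4 at 3.91 to 4.62 and 1.16 to 2.83. These 3 genes stayed wholly lower in +/+ axons, beside 2.66% of all genes tested. On this scale 65.7% of all genes were wholly higher in +/+ axons. Nlgn2 was the 1 gene of the 9 among these in +/+, at 1.34 to 1.58 in somatodendritic and 2.73 to 6.74 in axonal libraries. The other 5 genes overlapped between compartments. The ratio of the axonal to the somatodendritic mean was 0.84 for Nlgn1, 1.08 for Lrrtm3, 1.23 for Nlgn3, 1.35 for Lrrtm1 and 1.47 for Lrrtm2. In Hnrnpr-/- Nrxn3 alone stayed wholly lower in axons, at 9.39 to 24.1 against 31.0 to 47.5, and the other 8 genes overlapped, beside 2.12% of all genes wholly lower and 51.7% wholly higher. Nrxn2 overlapped there by 1 axonal library, at 4.37 to 12.9 against 12.3 to 20.8, and Nlgn2 was at 1.72 to 4.47 against 1.21 to 2.02. The direction of the difference between compartment means thus depended on the yardstick for Nlgn2, Nlgn3, Lrrtm1, Lrrtm2 and Lrrtm3 in both genotypes, and not for the neurexins, Nlgn1 and Lrrtm4. Both the list and the scale were chosen after the data were seen, and RNAs of the list are themselves known to reach axons.

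**Figure D4:**
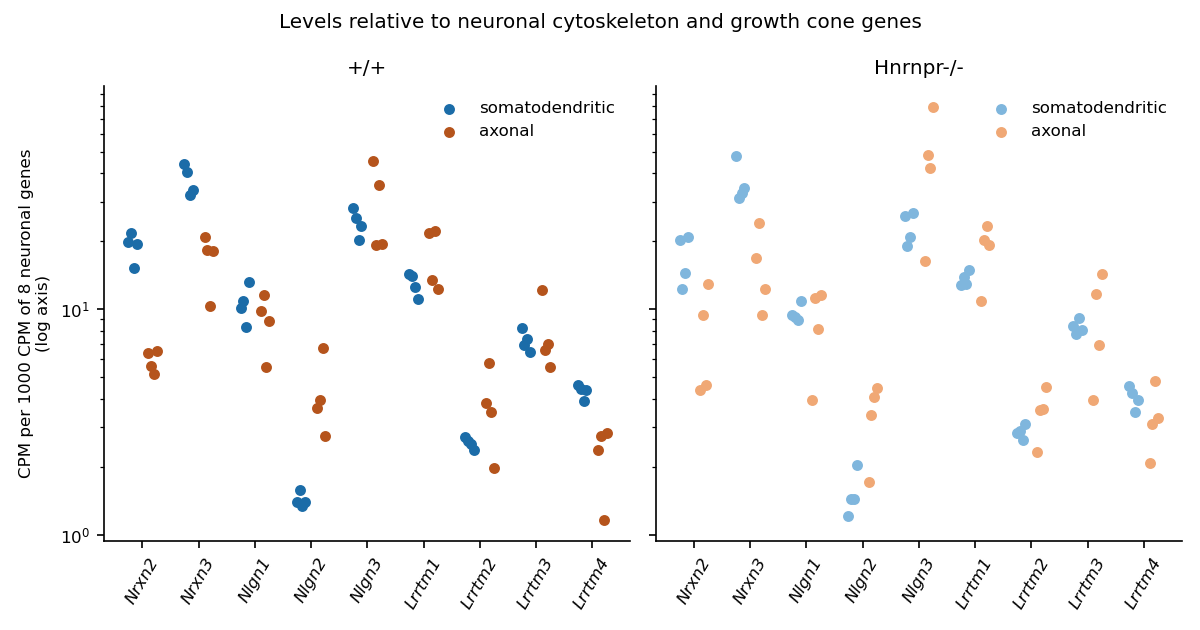
Level of each of the 9 genes per 1000 CPM of the 8 neuronal genes in each library (log axis), +/+ left and Hnrnpr-/- right. Points are single libraries, 4 per group. Nrxn2, Nrxn3 and Lrrtm4 lie wholly lower in +/+ axons and Nlgn2 wholly higher, and the other 5 genes overlap.

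Per kilobase of the exon length in the count table, the +/+ somatodendritic mean was highest for Nlgn3 at 59.1 CPM per kb, followed by Nrxn3 at 32.5, Nrxn2 at 27.0 and Lrrtm3 at 17.9. The remaining genes followed at 5.23 for Nlgn1, 4.28 for Lrrtm2, 3.82 for Lrrtm1, 3.69 for Lrrtm4 and 2.36 for Nlgn2. The ranges over libraries overlapped between Nrxn3 and Nrxn2 and between neighbours from Nlgn1 to Lrrtm4, whereas Nlgn3, Lrrtm3 and Nlgn2 stood apart from their neighbours. On the lengths of the count table Nlgn3 was again first in +/+ axons, at 18.8 CPM per kb, with a range of 12.3 to 29.5 that no other gene reached, and Lrrtm4 was last at 0.587. Nlgn2 moved from the ninth place to the sixth, at 1.80, within the range of its neighbours. This order rests on the lengths. The table gives Lrrtm1 32216 bases, while its canonical GENCODE transcript has 2548, and on canonical lengths Lrrtm1 was first in the +/+ somatodendritic compartment at 48.4 CPM per kb and Nlgn3 the fourth at 26.7. In +/+ axons Lrrtm1 was then first as well, at 16.8 CPM per kb, Nlgn3 the second at 8.49 and Nlgn2 the seventh at 1.85. That alternative was chosen after the data were seen.

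After loss of hnRNP R no difference beyond the spread between libraries was detected for the 9 genes. In axons 0 of 9 were called between Hnrnpr-/- and +/+ by edgeR, beside 0.01% of all genes tested, and 0 of 9 had an unadjusted p under 0.05, beside 3.88%. In the somatodendritic compartment 0 of 9 were called, beside 0.00501% of all genes, and 0 had an unadjusted p under 0.05, beside 0.601%. The difference between compartments in the genotype effect was called for 0 of 9, beside 0% of all genes, again with 0 at an unadjusted p under 0.05, beside 1.33%. DESeq2 also called 0 of 9 in each, with 1 at an unadjusted p under 0.05 in axons, Nlgn2 (log2 change -0.61 ± 0.28, unadjusted p = 0.0334, adjusted p = 0.883), and 0 in the others. The genotypes overlapped for every one of the 9 genes in both compartments, as for most genes, since among all genes tested 0.606% were apart in either direction in axonal and 1.58% in somatodendritic libraries. These counts do not set the 9 genes apart from other genes. The median log2 change of the 9 genes was -0.11 in axons and -0.10 in somatodendritic RNA. Of the 4 dendritic or nuclear RNAs edgeR called 0 between genotypes in either compartment. At an unadjusted p under 0.05 there was 1 of the 4 in axons, beside 3.88% of all genes, and 0 in the somatodendritic compartment. Among markers of other cells edgeR called 0 between genotypes, and 0 had an unadjusted p under 0.05. All 7 oligodendroglia or Schwann cell genes tested were higher in Hnrnpr-/- by their point estimates, with a median log2 change of 0.60 in axons and 0.48 in the somatodendritic compartment, as were all 6 microglia genes in axons (1.30) and 5 of 6 in the somatodendritic compartment (0.86). For the 7 astrocyte genes the medians were -0.26 in axons and 0.20 in the somatodendritic compartment, and for the 7 fibroblast genes -0.13 and 1.11. Their part in the genotype values was not tested.

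The intervals of these differences were wide. For the neurexins, the log2 change between genotypes in axons was 0.10 for Nrxn2, with a 95% interval from -0.80 to 1.00, and -0.04 for Nrxn3, from -1.32 to 1.24. For the neuroligins it was -0.50 for Nlgn1, from -1.40 to 0.41, and 0.24 for Nlgn3, from -0.41 to 0.89. The Nlgn1 value was -0.10 without +/+ axonal replicate 2, -0.23 without Hnrnpr-/- axonal replicate 3, -0.79 without +/+ axonal replicate 3 and -0.84 without Hnrnpr-/- axonal replicate 2, and was not called in any of these. By edgeR Nlgn2 came closest to the threshold in axons, at -0.59 ± 0.28 with an interval from -1.18 to 0.01 and an unadjusted p of 0.0537 in edgeR's model over all genes (adjusted p = 1). This value rested in part on single libraries, being -0.35 without +/+ axonal replicate 2, the highest, -0.38 without Hnrnpr-/- axonal replicate 3 and -0.81 without Hnrnpr-/- axonal replicate 1. The 4 dendritic or nuclear RNAs summed to 2843 CPM in +/+ axonal replicate 2 and to 702 to 1373 CPM in the other +/+ axonal libraries. That replicate also had the fewest genes detected of the 16 libraries, 22700. The part of these traits in the genotype values was not tested. Among the Lrrtm genes the axonal change between genotypes was -0.12 for Lrrtm1, -0.43 for Lrrtm2, -0.11 for Lrrtm3 and 0.10 for Lrrtm4. Their intervals lay between -1.38 and 1.05. In the somatodendritic compartment all 9 changes lay between -0.25 for Nrxn2 and 0.12 for Lrrtm3, with intervals from -1.15 to 0.64 and from -0.71 to 0.95. The widest interval there was that of Nrxn3, from -1.38 to 1.18. Hnrnpr-/- somatodendritic replicate 1 held the highest value of its group for 7 of the 9 genes. The share of all genes highest in that library was not counted.

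Most genes of 4 related lists were also lower in axons by CPM. The lists hold 72 genes, namely extracellular partners, cytoplasmic scaffolds, other synaptic adhesion organisers and regulators of neurexin splicing. Of the 72, 60 were called in +/+ axons, 58 lower and 2 higher, with a median log2 change of -1.68, beside 27.4% of all genes called lower, and 62 in Hnrnpr-/-, 59 lower and 3 higher, beside 26.8% called lower. Relative to the 8 neuronal genes, a scale put on these lists after the data were seen and given with no test, 9 of the 72 were wholly lower in +/+ axons, 16 wholly higher and 47 overlapped, beside 2.66% of all genes wholly lower and 65.7% wholly higher. In Hnrnpr-/- the numbers were 9, 8 and 55, beside 2.12% and 51.7%. Among 20 extracellular partners 15 were lower and 1 higher in +/+. The largest decreases were those of Clstn3 (calsyntenin 3, a neurexin ligand; log2 change -3.11 ± 0.72, adjusted p = 0.00216), Cbln4 (a cerebellin that bridges neurexins to other receptors; -2.88 ± 0.85, adjusted p = 0.00984) and Nxph3 (neurexophilin 3, which binds alpha-neurexins; -2.60 ± 0.52, adjusted p = 0.000877). The increase was that of Gpc4, a heparan sulfate glypican made by several cell types, at 3.31 ± 0.61 (adjusted p = 0.000471). The part of other cell types in this change was not tested.

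Among 22 cytoplasmic scaffold genes 17 were lower and 1 higher in +/+ axons. Apba1 (Mint1, a presynaptic adaptor; -3.74 ± 0.59, adjusted p = 0.00016), Dlg2 (PSD-93; -3.41 ± 0.73, adjusted p = 0.00127) and Dlgap2 (a PSD-95 binding protein; -2.67 ± 0.54, adjusted p = 0.000878) had the largest decreases, and Sdcbp (syntenin, a PDZ adaptor found in many cell types) was higher at 1.80 ± 0.22 (adjusted p = 3.58e-05). Among 27 other synaptic adhesion organisers 24 were lower and 0 higher, led by Lrfn2 (-4.17 ± 0.67, adjusted p = 0.000193), Cadm4 (-3.42 ± 0.40, adjusted p = 3.03e-05) and Slitrk1 (-3.39 ± 0.57, adjusted p = 0.000266). Of 3 RNA-binding proteins that control a neurexin alternative exon, Khdrbs2 (SLM1; -1.60 ± 0.53, adjusted p = 0.0171) and Khdrbs1 (Sam68; -0.38 ± 0.15, adjusted p = 0.0438) were lower, and Khdrbs3 was not called (0.27 ± 0.19, adjusted p = 0.249). Between genotypes edgeR called 0 of the 72 in either compartment, beside 0.01% of all genes in axonal and 0.00501% in somatodendritic RNA, and DESeq2 called 0. At an unadjusted p under 0.05 there was 1 of the 72 among axonal changes, beside 3.88% of all genes, and 0 among somatodendritic ones, beside 0.601%.

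Genes with the most similar pattern over the 16 libraries were found by the root mean square difference of gene-centred log2 CPM among 12994 genes with a mean of at least 5 CPM. For Nrxn3 they were Syt1 (synaptotagmin 1, a calcium sensor of vesicle release) at 0.156, Camta1 at 0.223 and Cadps at 0.225, against a median over all genes of 1.88. For Nlgn3 they were Fchsd2 at 0.146, Hip1r at 0.177 and Dclk2 at 0.194, against a median of 0.953. For Lrrtm1 they were Hid1 at 0.17, Osbpl6 at 0.179 and Samd14 at 0.189, against a median of 0.995. The 16 libraries also differed between compartments in levels of markers of other cells, so closeness here is a description only.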

How the data were processed

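RNA from 16 libraries was prepared with a low-input cDNA kit and sequenced from 1 end. Following the study's methods, the authors trimmed reads with Cutadapt, aligned them with STAR 2.7.2b to the RefSeq assembly of GRCm39 and counted exons with featureCounts 1.6.4 in reverse-stranded mode. Reads with several alignments or features were split, so the deposited values are estimated counts with fractions, not normalized. Axonal libraries had more PCR cycles than somatodendritic ones, which cannot be told apart from compartment. Groups and replicate numbers came from sample titles. Counts were rounded. edgeR 4.0.16 (R 4.3.3) was used with filterByExpr (minimum count 10, 15 in total), TMM factors and 1 mean per group over all 16 libraries, two-sided, with an adjusted p threshold of 0.05 over all 19964 genes tested. The standard error is the size of the log2 change over the square root of F. The script was tested on simulated data. DESeq2 1.42.0 was an alternative, as were RLE factors, library totals, other filters, unrounded counts, only the groups compared, a replicate block and leaving out each library.

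Deviations from group means correlated at 0.105 to 0.508 between same-numbered somatodendritic and axonal libraries of a genotype. Between same-numbered +/+ and Hnrnpr-/- libraries of a compartment they correlated at -0.0458 to 0.677. Libraries of different numbers were not compared, so these values cannot show whether the numbers pair cultures. Genes named were the 9 adhesion genes, Hnrnpr, host genes, the 3 largest called changes per direction and related list, and the 3 nearest genes by pattern for each family. The genes and lists were chosen with earlier results of these data known. Precision is limited by 4 libraries per group, and intervals are at the 95% level.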

Additional observations from a re-analysis of the deposited data

Results flagged for a closer look

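Nlgn3 in Hnrnpr-/- somatodendritic replicate 1 stood at 266.9 CPM, while the other 3 libraries of the group lay between 182.8 and 191.3 CPM. Its gap to the nearest library was 0.899 of the range of the group, above Dixon's critical value at the 95% level for a set of 4. This was 1 of 36 sets of 4 libraries examined, and chance alone marks about 1 in 20. The same library held the highest value of its group for 7 of the 9 genes, a count not made over all genes. Without this library 0 of the 9 genes were called between genotypes.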

How the results depend on the processing

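The number of adhesion genes called in +/+ axons was 7 to 8 and in Hnrnpr-/- axons 9 under every alternative, including both replicate blocks, and 0 were called between genotypes or for the difference between compartments under any. Genes of the 4 related lists called in +/+ axons numbered 56 to 64. Of 486 values of single genes between compartments, 478 kept their direction and side of the threshold, 8 lost the call and 0 reversed. All 8 were Lrrtm2 in +/+, among them library totals without TMM factors (log2 change -1.05 ± 0.45, adjusted p = 0.0566). Of 702 genotype values, 44 changed sign and 0 were called. On library totals the somatodendritic change became 0.00895 for Nlgn2 and 0.00735 for Lrrtm1. Without both axonal replicates 3 the axonal change of Lrrtm4 became -0.0862. With the replicate block the Nrxn3 difference between compartments in the genotype effect became -0.17, and with a block within genotype, chosen after the data were seen, -0.33. The blocks changed no call. Leaving out 1 library at a time, some genotype changes crossed 0. In axons they ranged from -0.15 to 0.43 for Nrxn2, -0.72 to 0.31 for Nrxn3, -0.0095 to 0.55 for Nlgn3, -0.42 to 0.10 for Lrrtm1, -0.83 to 0.21 for Lrrtm2, -0.46 to 0.18 for Lrrtm3 and -0.28 to 0.42 for Lrrtm4. Those of Nlgn1 (-0.84 to -0.10) and Nlgn2 (-0.81 to -0.35) kept their sign. Among somatodendritic changes they ranged from -0.35 to 0.0268 for Nrxn3, -0.0483 to 0.0561 for Nlgn2 and -0.093 to 0.0535 for Lrrtm1. Those of Nrxn2 (-0.45 to -0.13), Nlgn1 (-0.28 to -0.12), Nlgn3 (-0.30 to -0.0796), Lrrtm2 (0.0102 to 0.15), Lrrtm3 (0.0507 to 0.24) and Lrrtm4 (-0.29 to -0.0422) kept their sign. For the difference between compartments they ranged from -0.62 to 0.40 for Nrxn3, -0.61 to 0.12 for Nlgn1, -0.41 to 0.12 for Lrrtm1, -0.90 to 0.13 for Lrrtm2, -0.58 to 0.0497 for Lrrtm3 and -0.12 to 0.58 for Lrrtm4. Those of Nrxn2 (0.10 to 0.67), Nlgn2 (-0.79 to -0.33) and Nlgn3 (0.15 to 0.71) kept their sign. The cause of these reversals was not tested. The lowest count of any of the 9 genes in a library was 48. What depth and the spread between axonal libraries each contribute to the width of the intervals was not tested.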
